A study of Homo sapiens with 9 samples.

Results

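The loci of 9 genes linked to cell invasion were examined for binding by 5 proteins of the ETS family of transcription factors and by JUND, which forms part of the dimeric factor AP-1. The loci were chosen by gene and position: a window of 200 kb to either side of a given hg18 position for PLAU (chromosome 10, 75341000), PLAUR (chromosome 19, 48850000), MMP9 (chromosome 20, 44071000) and VIM (chromosome 10, 17310000), and the 550 kb from 101850000 to 102400000 of chromosome 11 that hold the metalloproteinase cluster from MMP7 to MMP13 with MMP10, MMP1 and MMP3. A peak, meaning 1 called region of a deposited list, belonged to a locus when its midpoint lay inside the window. The given positions are round numbers at or near the genes and not mapped start sites, and distances are counted from them. This gave 98 of the 27416 peaks. Of them, 46 lay at PLAU, 31 at MMP9, 10 in the metalloproteinase cluster, 9 at PLAUR and 2 at VIM.

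Chromatin immunoprecipitation followed by sequencing was done in PC3, an established line from a prostate cancer metastasis, with antibodies to endogenous ETV4 and JUND and no retroviral expression. In RWPE-1, an immortalised prostate epithelial line, antibodies to endogenous ETS1 and GABPA were used without retroviral expression. FLAG-ERG and FLAG-ETV1 were expressed there from a retrovirus and precipitated with a FLAG antibody, so these lists describe ectopic proteins. Each of the 6 lists comes from 1 library, and no list of the 2 inputs or of the FLAG control in RWPE-1 was analysed here. No difference between factors or lines could be tested, and cell line, antibody and depth cannot be told apart. FLAG-ETV1 accounts for 31.9% of all peaks, GABPA for 29.4%, ETV4 for 11.5%, JUND for 10.8%, FLAG-ERG for 8.44% and ETS1 for 7.95%, so equal counts at a locus stand for unequal shares of the lists. The depth behind each peak is unknown.

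PLAU encodes urokinase, a serine protease that converts plasminogen to plasmin at the cell surface, and PLAUR encodes the receptor that holds urokinase there. The matrix metalloproteinases are zinc proteases that cut the extracellular matrix: MMP1 and MMP13 are collagenases, MMP3 and MMP10 stromelysins, MMP7 is matrilysin and MMP9 a gelatinase. VIM encodes vimentin, an intermediate filament protein of mesenchymal cells. ETS proteins bind DNA at a GGAA core and AP-1 at TGACTCA, and enhancers with both elements are textbook features of PLAU and of several metalloproteinase genes.

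The deposited peaks are in hg18, of which no genome sequence was used here, so the bases under the peaks are not shown. For orientation, RefSeq promoter windows of build GRCh38 were searched over the 250 bases before the listed gene start. A window was found for 5 of the 9 genes (PLAU, PLAUR, VIM, MMP7 and MMP10), with 2 starts listed for PLAU. Of these genes, PLAU and VIM had a peak midpoint within 1 kb of the given position, and PLAUR and MMP7 had an AP-1 match, so the windows of these 4 are shown. Capitals mark GGAA or its reverse complement TTCC and likewise TGACTCA or TGAGTCA, and sequences read 5′ to 3′ on the gene's strand.
PLAU, first listed start (GRCh38 chr10:73910360-73910609, plus strand): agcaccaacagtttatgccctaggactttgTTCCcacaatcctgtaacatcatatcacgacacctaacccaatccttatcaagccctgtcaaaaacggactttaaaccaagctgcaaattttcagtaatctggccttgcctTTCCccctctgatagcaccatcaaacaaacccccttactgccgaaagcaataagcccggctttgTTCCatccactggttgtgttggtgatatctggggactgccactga
PLAU, second listed start (GRCh38 chr10:73910882-73911131, plus strand): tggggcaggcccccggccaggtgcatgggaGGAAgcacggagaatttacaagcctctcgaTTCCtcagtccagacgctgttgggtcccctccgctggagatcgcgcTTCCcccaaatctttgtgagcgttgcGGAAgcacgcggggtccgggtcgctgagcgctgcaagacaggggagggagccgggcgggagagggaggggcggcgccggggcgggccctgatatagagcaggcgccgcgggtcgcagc
VIM (GRCh38 chr10:17227991-17228240, plus strand): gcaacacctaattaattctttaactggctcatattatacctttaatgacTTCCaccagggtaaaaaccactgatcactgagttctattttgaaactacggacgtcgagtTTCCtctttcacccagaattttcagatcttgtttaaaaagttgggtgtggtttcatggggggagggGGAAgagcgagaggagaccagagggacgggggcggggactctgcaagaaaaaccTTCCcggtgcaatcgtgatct
PLAUR (GRCh38 chr19:43670170-43670419, minus strand): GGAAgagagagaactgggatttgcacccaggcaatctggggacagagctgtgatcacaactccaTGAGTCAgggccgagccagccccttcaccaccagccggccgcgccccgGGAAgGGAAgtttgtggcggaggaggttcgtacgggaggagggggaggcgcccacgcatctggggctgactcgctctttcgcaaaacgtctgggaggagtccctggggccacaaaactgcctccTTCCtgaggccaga
MMP7 (GRCh38 chr11:102530748-102530997, minus strand): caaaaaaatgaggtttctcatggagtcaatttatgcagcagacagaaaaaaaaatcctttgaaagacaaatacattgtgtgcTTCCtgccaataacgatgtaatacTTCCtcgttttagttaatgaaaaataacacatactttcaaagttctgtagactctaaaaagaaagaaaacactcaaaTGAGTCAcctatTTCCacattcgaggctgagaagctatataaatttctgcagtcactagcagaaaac

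All 6 promoter windows held GGAA on one strand or the other, as did 92.7% of the 35116 windows of this length in the table. TGACTCA or its reverse complement was found in 2 of the 6, at PLAUR (first base 186 bases before the start) and MMP7 (67 bases before it), against 4.20% of all windows. The longer ETS motif CCGGAA, which contains GGAA, was in none of the 6 and in 14.5% of all windows. A match only says that these letters occur. Positions of the 2 builds are not interchangeable, so no peak was laid over these windows.

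PLAU had the most peaks of the 5 loci. In the windows of 200 kb to either side it was the only one of them with peaks of all 6 lists, while with 500 kb MMP9 had all 6 as well. FLAG-ETV1 had 14 peaks in the 400 kb, JUND 9, ETV4 and GABPA 7 each, ETS1 5 and FLAG-ERG 4. Among all 400 kb windows tiled over the genome, ETV4 had a peak in 23.9%, JUND in 24.5%, ETS1 in 18.3%, GABPA in 42.2%, FLAG-ERG in 18.6% and FLAG-ETV1 in 49.7%. A window held on average 0.386 JUND and 1.13 FLAG-ETV1 peaks, so the counts at PLAU were 23.3 and 12.3 times the mean. They were 17.7 times the mean for ETS1, 17.2 for ETV4, 13.3 for FLAG-ERG and 6.68 for GABPA. Chromosome 10 held more peaks than the genome as a whole for each list. Against its own mean per window the counts were 15.1 times for JUND, 12.5 for FLAG-ERG, 10.8 for ETS1, 9.46 for ETV4, 7.48 for FLAG-ETV1 and 5.23 for GABPA. As many peaks as at PLAU were found in 2 of the 7702 windows for JUND, 6 for FLAG-ETV1, 23 for ETV4, 29 for ETS1, 80 for FLAG-ERG and 194 for GABPA. GABPA had the lowest ratio against either mean. Tiled windows include stretches without genes or unique sequence, and gene density was not matched. They also include the windows over PLAU itself, and the locus was chosen with earlier results of these data known.

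**Figure D1:**
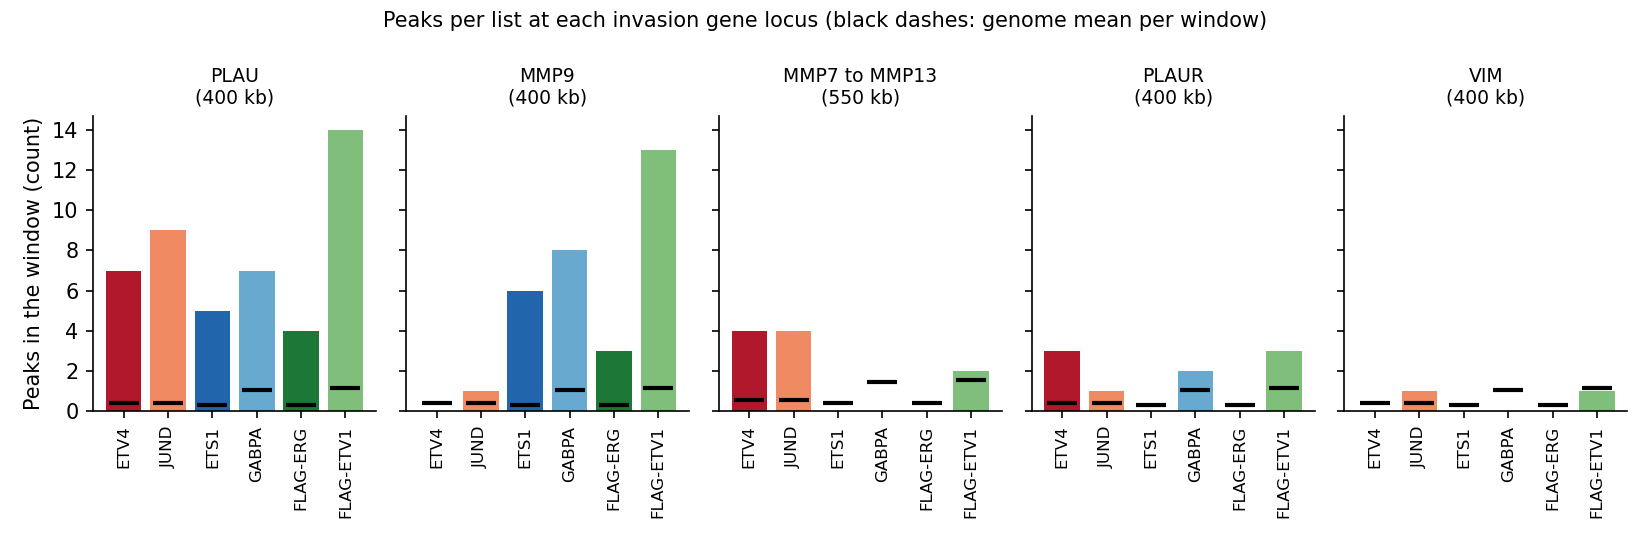
Number of peaks (y axis, count) of each list (x axis, colours) in the windows of the 5 loci, with black dashes at the mean per window of the same length over the genome. All 6 lists are high at PLAU, 30 of the 31 MMP9 peaks are from RWPE-1, and 8 of the 10 cluster peaks are from PC3.

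The 46 PLAU peaks merged into 28 regions, in which peaks overlapping by at least 1 bp were joined. Of these, 11 were held by 2 or more lists, 5 by 3 or more and 2 by 4. Over the series, 10.7% of the 24166 regions were held by 2 or more lists, 2.25% by 3 or more and 0.484% by 4 or more. A 400 kb window held 0.335 such shared regions on average. Of the 7702 tiled windows, 1 held 11 shared regions and none held more, and that window overlaps the PLAU locus. PC3 and RWPE-1 peaks met in 7 of the 28 regions, 5 were held by PC3 lists alone and 16 by RWPE-1 lists alone. The same split was not counted over the series. Most peaks of the series are from RWPE-1 lists, so these counts say nothing particular about PLAU.

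Within 25 kb of the gene position there were 17 peaks in 8 regions, of which 3 were held by 3 or more lists. About 1.92 kb on the lower-coordinate side, the region chr10:75338608-75339561 was held by ETV4, JUND, ETS1 and FLAG-ERG. The ETV4 peak (75338785 to 75339281) and the JUND peak (75338773 to 75339268) had midpoints 12.5 bp apart. The FLAG-ERG midpoint lay 170 bp from that of JUND on one side and the ETS1 midpoint 292 bp from it on the other. FLAG-ERG and ETS1 overlapped by 31 bp only, so the region is a chain of peaks and not a stack with 1 centre. In the series, 16 regions hold at least these 4 lists.

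A second region, chr10:75336295-75336937, lay 4.38 kb on the same side, 1.67 kb from the first. ETV4 and JUND were both present again, with midpoints 14.5 bp apart, and FLAG-ETV1 joined them with its midpoint 130 bp from that of ETV4. ETS1 and FLAG-ERG had no peak there, and FLAG-ETV1 had none in the first region. The ectopic proteins thus split between neighbouring regions at which both PC3 factors were present. FLAG-ETV1 also had 2 peaks on the higher-coordinate side that no other list shared, chr10:75341495-75341972 and chr10:75342875-75343371, with midpoints 0.733 and 2.12 kb from the gene position. Within 5 kb of the position there were 9 peaks, of which 3 were FLAG-ETV1, 2 ETV4, 2 JUND, 1 ETS1 and 1 FLAG-ERG.

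The third of these regions was chr10:75361914-75362664, 21.3 kb on the higher-coordinate side, held by JUND, ETS1, FLAG-ERG and FLAG-ETV1. It is the 1 region of the series with exactly these lists, and 9 regions hold at least these. JUND and FLAG-ETV1 midpoints were 15 bp apart and JUND and FLAG-ERG midpoints 46.0 bp apart. ETS1 was again off centre, 237 bp from JUND. ETV4, which accompanied JUND at the first and second of them, had no peak here. On the lower side, farther from the position than the second region, ETS1 had an unshared peak at chr10:75324113-75324595 (16.6 kb) and FLAG-ETV1 one at chr10:75318490-75318956 (22.3 kb).

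**Figure D2:**
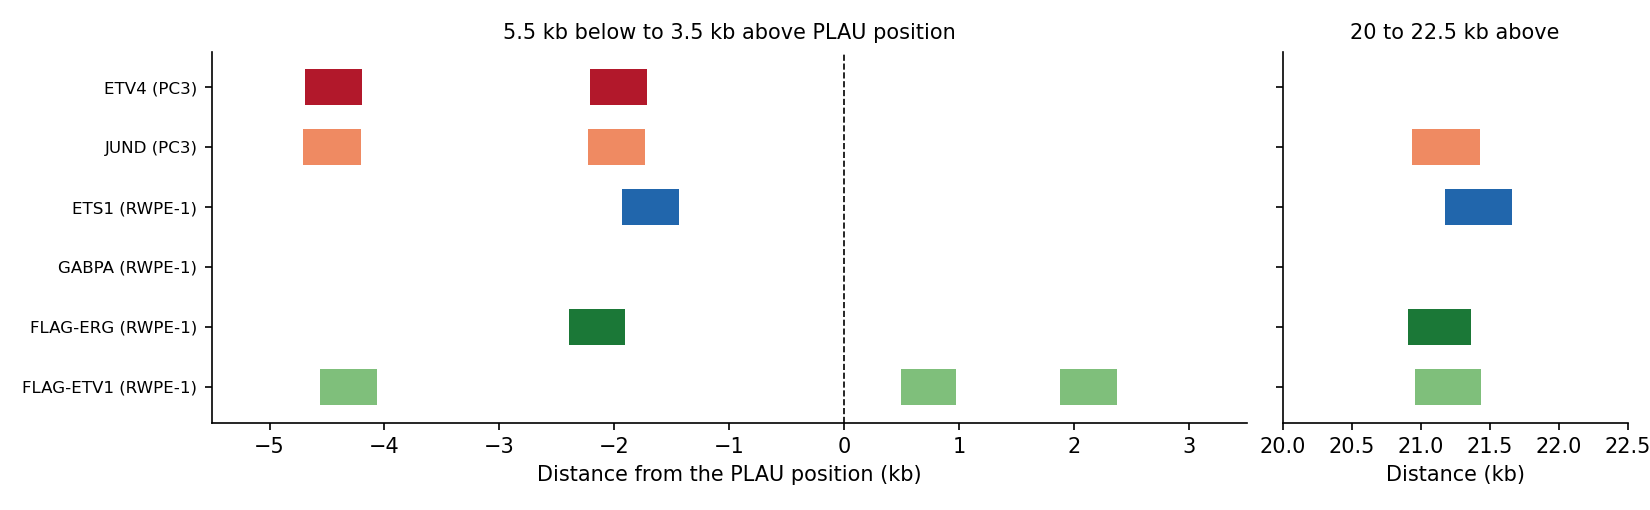
Peaks near the PLAU position drawn to scale (x axis, distance in kb; negative values are towards lower coordinates; 1 row per list). ETV4 and JUND coincide at 4.38 and 1.92 kb below the position, FLAG-ETV1 and FLAG-ERG each join 1 of these, and 4 lists without ETV4 meet 21.3 kb above it.

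Farther out, ETV4 and JUND met in 2 more regions, at chr10:75317209-75317820 (23.5 kb on the lower side, midpoints 112 bp apart) and chr10:75485711-75486232 (145 kb on the higher side, 25 bp apart), in each case without an RWPE-1 factor. JUND met ETS1 at chr10:75395932-75396458 (55.2 kb, higher side, 28.0 bp apart) and FLAG-ETV1 at chr10:75428851-75429437 (88.1 kb, higher side, 98.0 bp apart). In all, 7 of the 9 JUND peaks at PLAU overlapped another list, against 32.2% of the whole JUND list. The other 2 were alone, chr10:75171251-75171750 (170 kb, lower side) and chr10:75272743-75273242 (68.0 kb, lower side).

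On the far lower side, between 126 and 167 kb from the position, 4 shared regions had no JUND. They were chr10:75173720-75174255 with ETV4, GABPA and FLAG-ETV1, chr10:75202022-75202555 with ETV4, FLAG-ERG and FLAG-ETV1, chr10:75211452-75212290 with FLAG-ERG and FLAG-ETV1, and chr10:75214957-75215611 with ETS1 and FLAG-ETV1. The first is the sole PLAU region with a shared GABPA peak, and its 3 midpoints lay within 45.0 bp. All 7 GABPA peaks were on the lower side, and the nearest, chr10:75298229-75298702, was 42.5 kb from the position. In gene order, NDST2 and CAMK2G precede PLAU and VCL and AP3M1 follow it, so peaks this far from PLAU may lie nearer to other genes. Which gene a peak acts on was not tested.

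**Figure D3:**
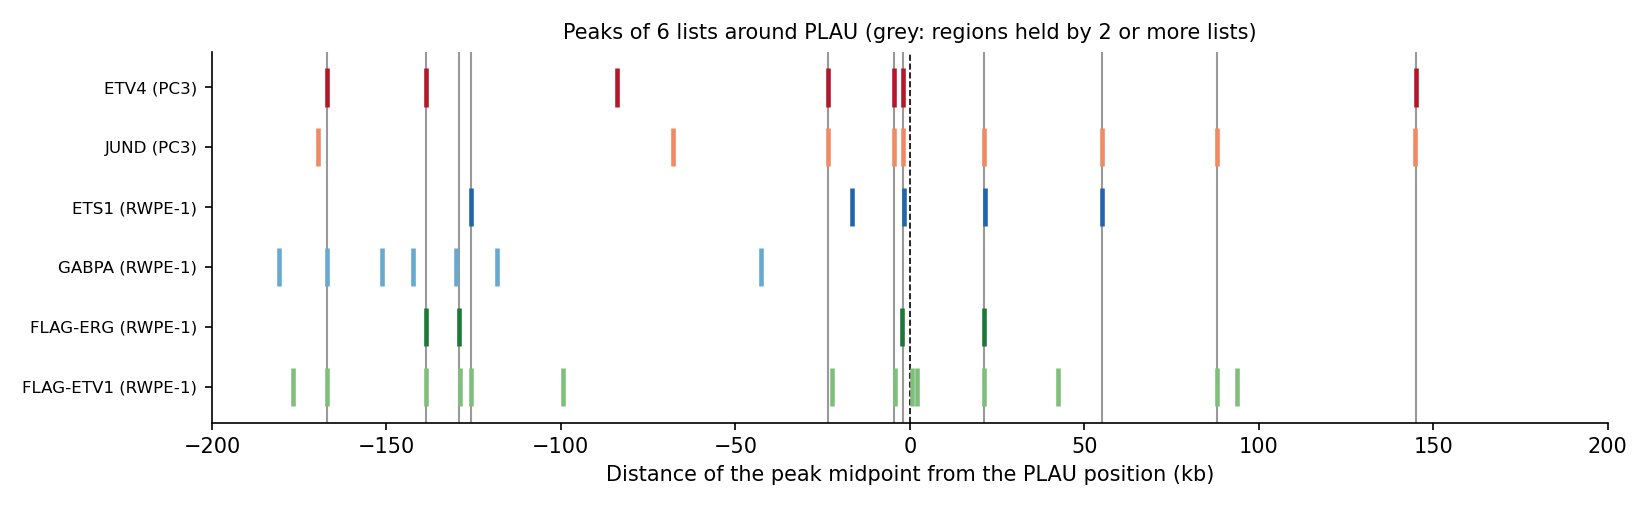
Midpoints of the 46 PLAU peaks (x axis, distance from the gene position in kb; 1 row per list), with ticks of fixed width and grey lines at the 11 shared regions. GABPA stays on the lower-coordinate side, no closer than 42.5 kb, and 7 of the 9 JUND peaks lie in shared regions.

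Counted by list, 7 of the 9 JUND peaks at PLAU overlapped a peak of another list, 6 of 7 for ETV4, 4 of 5 for ETS1, 4 of 4 for FLAG-ERG, 7 of 14 for FLAG-ETV1 and 1 of 7 for GABPA. Over the whole lists these shares were 32.2% for JUND, 30.4% for ETV4, 27.8% for ETS1, 45.9% for FLAG-ERG, 17.2% for FLAG-ETV1 and 9.22% for GABPA. At this number of peaks the exact 95% binomial intervals are wide, 40.0 to 97.2% for JUND, 42.1 to 99.6% for ETV4, 28.4 to 99.5% for ETS1 and 39.8 to 100% for FLAG-ERG. Those of FLAG-ETV1 (23.0 to 77.0%) and GABPA (0.361 to 57.9%) are wide as well. The intervals cover counting error only and treat neighbouring peaks as independent. Where many lists have peaks close together, overlaps are more frequent by density alone, and that part was not tested.

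PLAUR, the gene of the urokinase receptor, differed from PLAU in having no peak of any list within 50 kb of the given position. The nearest was a FLAG-ETV1 peak at chr19:48902893-48903326, 53.1 kb on the higher-coordinate side, and the window held a peak-free stretch of 173 kb. How often stretches of such lengths hold no peak was not counted. Of the 9 peaks, 3 were ETV4, 3 FLAG-ETV1, 2 GABPA and 1 JUND, and ETS1 and FLAG-ERG had 0. The ETS1 count depended on the window: with 500 kb to either side it was 8, as many as for GABPA, while FLAG-ERG kept 0. Of the tiled 400 kb windows, 21.3% held at least 1 shared region. The 1 shared region at PLAUR, chr19:48961147-48961663, lay 111 kb from the position and was held by ETV4, JUND and FLAG-ETV1. These are the lists of the second PLAU region, and 107 regions of the series hold at least these. The ETV4 and JUND midpoints were 1 bp apart and that of FLAG-ETV1 was 24.0 bp from ETV4, the closest alignment of 3 lists at any of the loci. ETV4 had 2 more peaks nearby, chr19:48964449-48964926 and chr19:48976831-48977326, that no list shared.

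The remaining PLAUR peaks stood alone. GABPA had chr19:48978691-48979191, 129 kb on the higher side, and chr19:48667235-48667692, 183 kb on the lower side. FLAG-ETV1 had chr19:48729068-48729543, 121 kb on the lower side. On chromosome 19 a 400 kb window held on average 7.40 peaks of all lists, against 3.56 over the genome. The total of 9 at PLAUR was thus close to the mean of that chromosome, but the lists differed. ETV4 was at 7.38 times its mean on that chromosome, JUND at 2.32, FLAG-ETV1 at 1.39 and GABPA at 0.742. ETS1 had a peak in 51.9% of the 400 kb windows of chromosome 19 and FLAG-ERG in 35.6%.

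At MMP9 the 4 RWPE-1 lists, which hold most peaks of the series, supplied 30 of the 31 peaks. FLAG-ETV1 had 13, GABPA 8, ETS1 6 and FLAG-ERG 3. JUND had 1, chr20:44055363-44055859, 15.4 kb on the lower-coordinate side, and ETV4 had 0. A 400 kb window of chromosome 20 held on average 3.48 GABPA, 3.08 FLAG-ETV1, 1.11 ETS1 and 1.08 FLAG-ERG peaks, and 0.707 ETV4 and 0.796 JUND peaks. The 4 RWPE-1 counts exceeded these means as well as those of the genome (1.05, 1.13, 0.283 and 0.300). For ETV4, 36.9% of the windows of the chromosome held a peak, so a window without one was the commoner case. The 1 JUND peak was 1.26 times the JUND mean of the chromosome.

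The peak nearest to the MMP9 position was GABPA at chr20:44069933-44070404, 0.832 kb on the lower side, followed by FLAG-ETV1 at chr20:44076239-44076717, 5.48 kb on the higher side. The nearest ETS1 peak, chr20:44094464-44094951, was 23.7 kb away. No other list shared any of these 3. GABPA thus had the closest peak at MMP9, with a second one 9.79 kb away (chr20:44061005-44061416). At PLAU no GABPA peak lay within 25 kb of the position, although the 400 kb windows held similar numbers, 7 at PLAU and 8 at MMP9.

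Of the 27 MMP9 regions 2 were shared, 7.41% against 10.7% in the series. Among the tiled 400 kb windows, 7.17% held 2 or more shared regions. FLAG-ERG and FLAG-ETV1 met in both. At chr20:44033967-44034660, 36.7 kb on the lower side, ETS1 was the third list, with midpoints 70.5 bp apart for FLAG-ERG and FLAG-ETV1 and 136 bp for ETS1 and FLAG-ERG. At chr20:43919019-43919839, 152 kb on the lower side, GABPA was the third, and FLAG-ERG lay 95.5 bp from GABPA and 351 bp from FLAG-ETV1. The third FLAG-ERG peak, chr20:44196443-44196938, was 126 kb on the higher side and alone. In gene order, PCIF1 and ZNF335 precede MMP9 and SLC12A5 and NCOA5 follow, so this window also covers other genes.

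**Figure D4:**
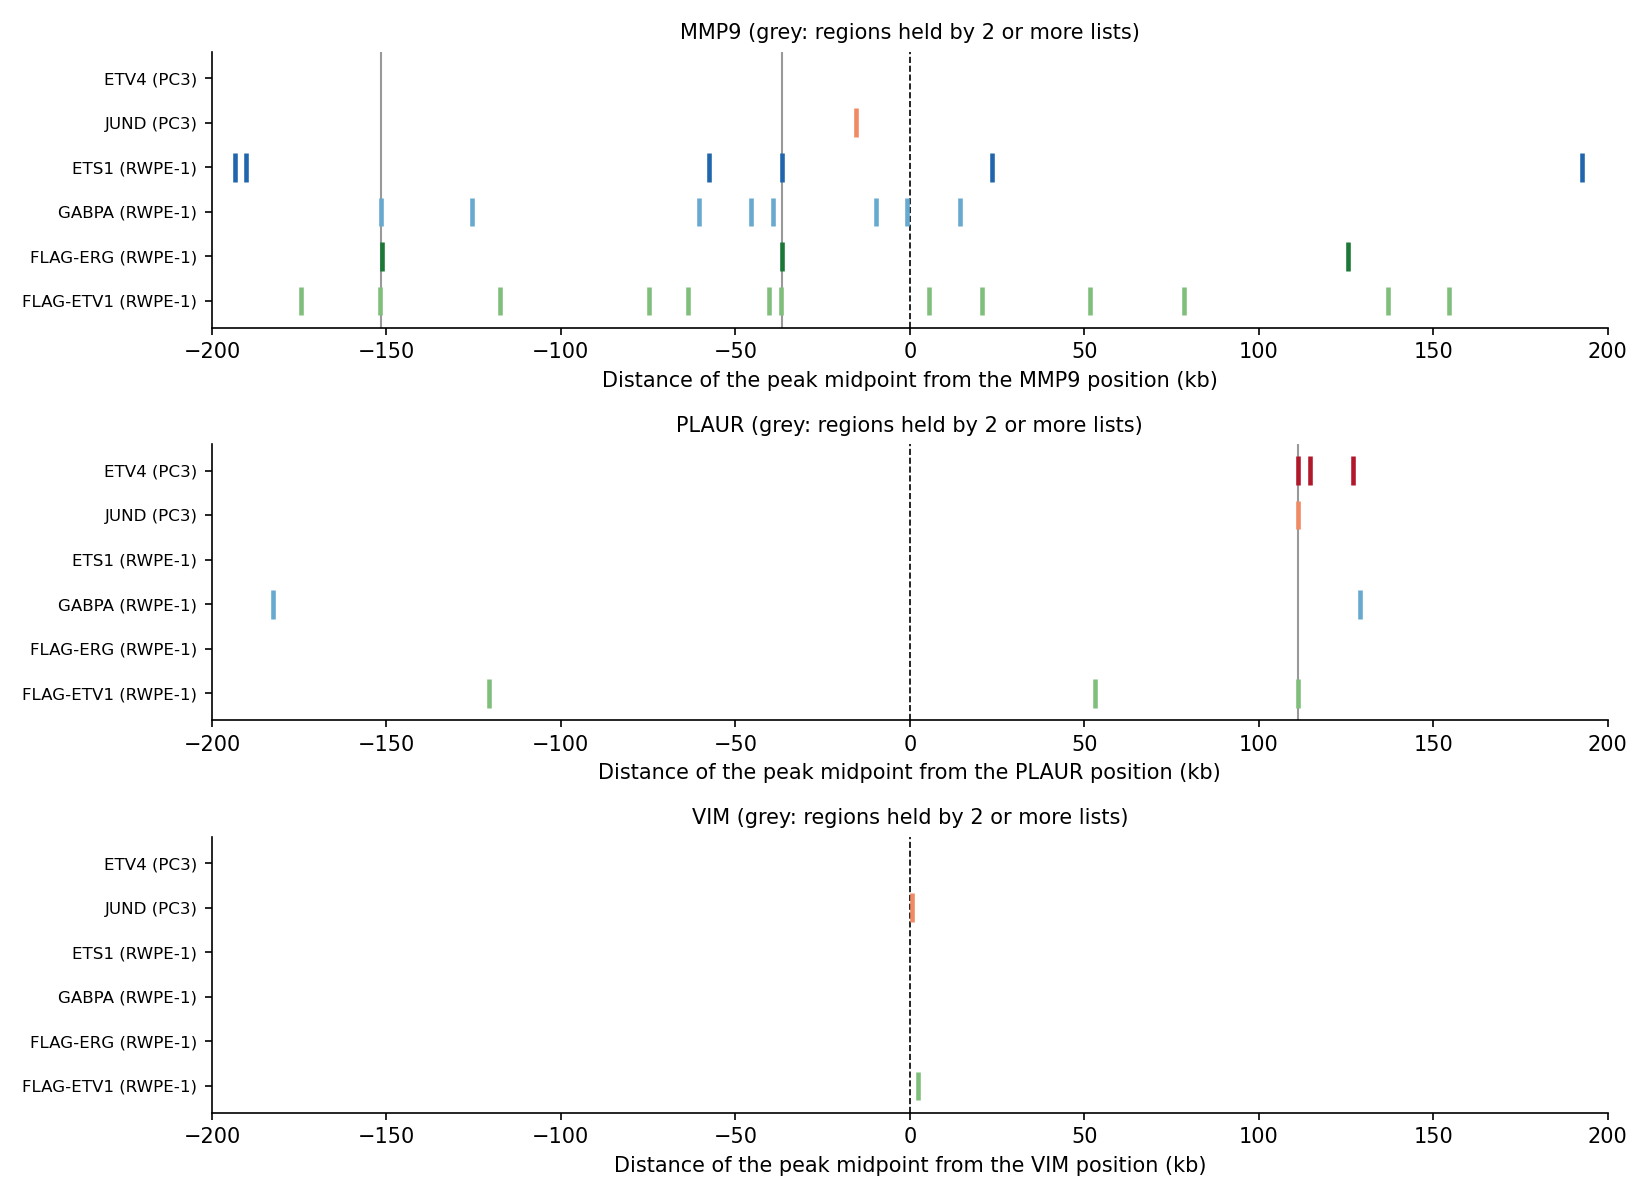
Midpoints of the peaks at MMP9, PLAUR and VIM (x axes, distance from each gene position in kb; 1 row per list), with ticks of fixed width and grey lines at regions held by 2 or more lists. The ETV4 row is empty at MMP9, and no list has a peak within 50 kb of the given PLAUR position, which is not a mapped start. Both VIM peaks lie within 2.25 kb of the given VIM position.

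VIM had 2 peaks in 400 kb, both close to the given position. JUND had chr10:17310361-17310839, 0.6 kb on the higher-coordinate side, and FLAG-ETV1 had chr10:17312016-17312485, 2.25 kb on that side. They did not overlap and were 1.18 kb apart from edge to edge. ETV4, ETS1, GABPA and FLAG-ERG had no peak in the window, and the nearest outside it was an ETV4 peak 231.4 kb from the position. In the tiled genome, 54.2% of the windows held 2 or more peaks, so the number is ordinary. How often peaks of these lists lie this close to a gene was not tested.

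The cluster from MMP7 to MMP13 was bound mainly by the PC3 factors. ETV4 and JUND had 4 peaks each, FLAG-ETV1 had 2, and ETS1, GABPA and FLAG-ERG had 0. Of all 550 kb windows, 29.7% held an ETV4 peak and 30.7% a JUND peak, while FLAG-ETV1 was in 57.2%, GABPA in 49.1%, FLAG-ERG in 23.3% and ETS1 in 22.9%. A window held on average 0.561 ETV4, 0.531 JUND and 1.56 FLAG-ETV1 peaks, so the counts were 7.13, 7.54 and 1.28 times the mean. Against the means of chromosome 11 they were 5.24, 5.30 and 1.07 times. On that chromosome 33.9% of the 550 kb windows held an ETV4 peak, 43.7% JUND, 61.6% FLAG-ETV1, 58.8% GABPA, 30.2% FLAG-ERG and 29.4% ETS1. As many peaks as in the cluster were found in 3.23% of the windows of the genome for ETV4, 2.30% for JUND and 35.2% for FLAG-ETV1. Windows without ETS1 or FLAG-ERG are the rule in the genome, and about as many windows lack GABPA as hold it.

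ETV4 and JUND shared 2 of the 8 cluster regions. At chr11:102136199-102136811 their midpoints were 127 bp apart and at chr11:102159495-102160007, 22.7 kb further on, 28.0 bp apart. Both regions carried no RWPE-1 peak, as at 2 of the 4 ETV4 and JUND regions of PLAU. Of the 723 regions of the series with ETV4 and JUND, 548 (75.8%) held no other list. Among the tiled 550 kb windows, 10.2% held 2 or more shared regions. JUND overlapped 2 of the 4 ETV4 peaks of the cluster, and ETV4 overlapped 2 of the 4 JUND peaks. The whole-list shares, 23.0% and 24.3%, lie inside the wide exact intervals of these counts. The other ETV4 peaks were chr11:102300613-102301042 and chr11:102372312-102372809, and the other JUND peaks chr11:101939873-101940350 and chr11:102331581-102332081. FLAG-ETV1 was alone at chr11:102077617-102078116 and chr11:102186834-102187205. The longest stretch without a peak was the 137 kb between the first JUND and the first FLAG-ETV1 peak.

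The genes of the cluster run in the order MMP7, MMP20, MMP27, MMP8, MMP10, MMP1, MMP3, MMP12 and MMP13. No hg18 position of a single metalloproteinase of this cluster was used here, so the peaks are given by position and not assigned to MMP7, MMP10, MMP1, MMP3 or MMP13.

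**Figure D5:**
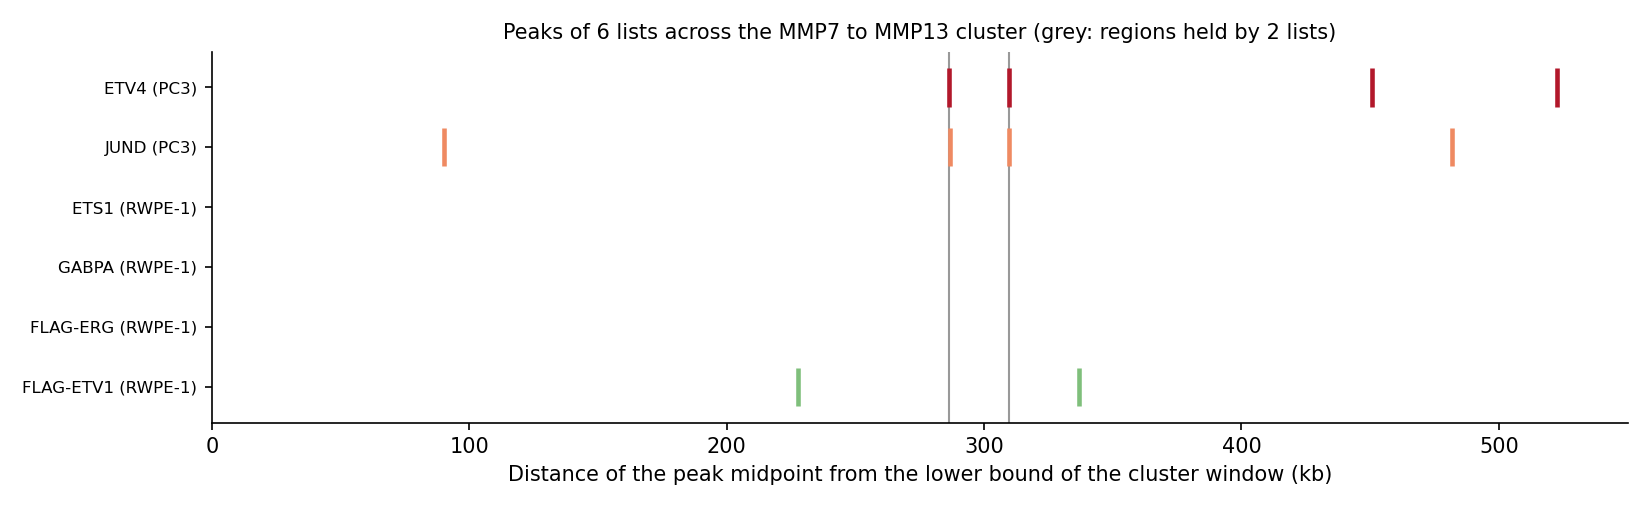
Midpoints of the 10 peaks in the MMP7 to MMP13 window (x axis, distance from its lower bound in kb; 1 row per list), with ticks of fixed width and grey lines at the 2 shared regions. The shared ETV4 and JUND regions lie 287 and 310 kb from the bound, and the rows of ETS1, GABPA and FLAG-ERG are empty.

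Over the 5 loci, ETV4 and JUND were the pair that met most often, in 7 of the 16 shared regions: 4 at PLAU, 2 in the metalloproteinase cluster and 1 at PLAUR. JUND overlapped 7 of the 14 ETV4 peaks (exact 95% interval 23.0 to 77.0%) and ETV4 overlapped 7 of the 16 JUND peaks (19.8 to 70.1%). In the whole lists these shares were 23.0% and 24.3%, the first at the lower bound of its interval and the second inside it. FLAG-ERG and FLAG-ETV1 met in 5 regions, 3 at PLAU and 2 at MMP9. FLAG-ETV1 overlapped 5 of the 7 FLAG-ERG peaks (29.0 to 96.3%), against 31.1% of the whole FLAG-ERG list, which lies inside the interval. FLAG-ETV1 met ETV4 in 4 regions and JUND in 4, at PLAU and PLAUR in both cases. ETV4 overlapped 4 of the 33 FLAG-ETV1 peaks and JUND also 4, against 2.87% and 2.71% of the whole FLAG-ETV1 list. Both whole-list shares lie below the exact interval. In the other direction, FLAG-ETV1 overlapped 4 of the 14 ETV4 peaks (8.39 to 58.1%), against 7.99% of the whole list, which lies below. FLAG-ETV1 overlapped 4 of the 16 JUND peaks (7.27 to 52.4%), against 7.97%, which lies inside. For FLAG-ETV1 with ETV4 and for FLAG-ETV1 with JUND, 3 of the 4 regions lay at PLAU. The 2 regions held by ETV4, JUND and FLAG-ETV1 count for both pairs. These intervals treat neighbouring peaks as independent, and overlap by density alone was not tested. No excess of overlap is therefore concluded from them.

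FLAG-ERG was the list with the fewest peaks, 7 in all, and the most often shared. Another list overlapped 6 of them, against 45.9% of the whole FLAG-ERG list, with an interval of 42.1 to 99.6% that includes that share. Of the 17 GABPA peaks 2 were shared (1.46 to 36.4%), against 9.22% of the whole list. None of the 17 overlapped JUND or ETS1, which overlapped 0.434% and 2.57% of the whole GABPA list. ETS1 had 11 peaks, 5 at PLAU and 6 at MMP9, and 5 of them were shared (16.7 to 76.6%), against 27.8% of the whole list. Of the 33 FLAG-ETV1 peaks 10 were shared (15.6 to 48.7%), against 17.2% of the whole list. The whole-list share of each of these 3 lists lies inside its interval. Of the ETV4 peaks, 9 of 14 were shared (35.1 to 87.2%), against 30.4% of the whole list. Of the JUND peaks, 10 of 16 were shared (35.4 to 84.8%), against 32.2%. Both whole-list shares lie below the interval, and 6 of these ETV4 and 7 of these JUND peaks lay at PLAU. The intervals again treat neighbouring peaks as independent. FLAG-ETV1 and JUND were the lists with a peak at each of the 5 loci.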

How the data were processed

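Per the labels, regions bound by 6 factors were deposited in build hg18. The authors deposited each list as 3 columns, chromosome, start and end, without a header, score or height. The sources used here name no aligner, peak caller, control library or threshold, and no stricter threshold could be set. Starts were read as counted from 0 and are printed counted from 1. Samples were grouped by title, with 1 library per factor.

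Peaks were assigned to loci by midpoint, merged into regions where they overlapped by at least 1 bp, and compared with windows of the same length (400 or 550 kb) tiled over each chromosome to its last peak. Shares carry exact (Clopper-Pearson) 95% binomial intervals. No p-value was computed. Counting and merging were tested on simulated data with planted peaks. Named are, by rule, all shared regions, the peak of each list nearest to a gene position, and every peak where a locus has at most 8. All peaks of PLAUR and the cluster, and 7 more at PLAU and MMP9, were named after their values were seen. The members, positions and lists were chosen with earlier results of these data known. RefSeq tables of GRCh38 supplied gene order and promoters only. The other genes of these roles, which need hg18 positions, were not analysed here. Alternatives were other window widths, assignment by any overlap, 3 other sharing rules and 2 other tilings. Added after seeing the data were leaving out each list and the motif CCGGAA. Python 3.11.15, numpy 2.4.6, scipy 1.17.1 and matplotlib 3.10.9 were used.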

Additional observations from a re-analysis of the deposited data

How the results depend on the processing

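Window width set the counts of peaks. With 100 kb to either side, PLAU held 27, MMP9 19 and PLAUR 1 peaks of all lists, and VIM kept 2. With 500 kb, MMP9 held 50, PLAUR 25 and VIM 5. ETV4 then had 1 and JUND 2 peaks at MMP9, so that all 6 lists were present there, and ETS1, with 0 at 200 kb, had 8 at PLAUR. Assignment by any overlap left every locus total within 1.5 times its main value, as did each of the 3 other sharing rules for the shared regions (reciprocal overlap of 50% gave 10 at PLAU). Leaving out each list in turn gave 7 to 11 shared regions at PLAU and 0 to 2 in the MMP7 to MMP13 cluster. The 7 is without JUND, and the 0 is without ETV4 or without JUND, since both cluster regions are shared by these lists alone. PLAUR had 1, MMP9 2 and VIM 0 in each case. Counting only windows with a peak of any list, the share of 400 kb windows with a peak was 33.9% for ETV4, 34.7% for JUND, 25.9% for ETS1, 59.8% for GABPA, 26.4% for FLAG-ERG and 70.4% for FLAG-ETV1. For 550 kb windows it was 38.8%, 40.0%, 30.0%, 64.1%, 30.4% and 74.7%. Over all windows of the genome, tiles with shifted starts left each of the 12 shares of windows with a peak of a list inside its exact 95% interval. Shares within 1 chromosome, and shares of windows with as many peaks or shared regions as a locus, were not recounted with shifted tiles. No paired analysis was possible because each factor has 1 library. Depth and peak strength are unknown, so weak and strong peaks count alike.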
